A study of Homo sapiens with 16 samples.

Results

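The JAK kinases and STAT factors described here are the kinases JAK1, JAK3 and TYK2 and the transcription factors STAT2, STAT3, STAT4, STAT5A, STAT5B and STAT6. A promoter was taken as a member where its name in the deposited tables carried 1 of these 9 gene symbols, with no use of its measured values. Each gene had 1 promoter, so 9 of the 21857 promoters in the tables were members.

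JAK kinases sit on the inner tails of cytokine and interferon receptors. When a cytokine joins its receptor chains, the kinases phosphorylate each other and the receptor, and STAT proteins that dock there are phosphorylated, pair, enter the nucleus and bind DNA. JAK1 serves interferon and many interleukin receptors, JAK3 pairs with the common gamma chain of lymphocyte interleukin receptors, and TYK2 serves the type I interferon, IL-10 and IL-12 receptors. In B cells the pathway carries signals from IL-4, IL-10, IL-21 and interferons, and bacterial products can reach it by way of the cytokines that they induce.

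Nucleosomes were mapped in GM12878, a human B-lymphoblastoid cell line immortalised with Epstein-Barr virus, either untreated or harvested at 20, 40 or 60 min of heat-killed *Salmonella typhimurium* (HKST). Cross-linked nuclei were digested with micrococcal nuclease (MNase) at 20 U (light) or 200 U (heavy), and mononucleosome fragments around transcription start sites (TSSs) were captured and sequenced. The 8 groups, 1 for each treatment and digest, had 2 replicates each, and the deposited tables pool both. Sample titles of replicate 1 carry the tag NOHDI and those of replicate 2 do not. The sample labels do not explain the tag. Values are depth-normalised counts of fragment centers (rpm) for fragments of 140 to 200 bp, at a spacing of 10 bp across the 2 kb centered on each TSS in hg19.

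Sensitivity is log2 of light over heavy signal, so that positive values mark fragments released by light digestion and negative values mark fragments that withstood heavy digestion. With the replicates pooled, their spread is unknown and no p-value was calculated. The 95% intervals are exact and cover counting error only. Whether a time point differed or its tube was digested to another extent cannot be told apart. Every HKST time point was compared with the same untreated tables. Depths recovered from the values, with a step in them taken as 0.5 fragment, were 9.43 to 10.5 M light and 3.27 to 7.04 M heavy fragments. The untreated, 40 min and 60 min tables together held 16260 complete promoters, all 9 members among them. In both 20 min tables only JAK1 was complete among the members, and in the 20 min heavy table also STAT2 and STAT6.

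As a check of the labelled cell type, signal over the start (-100 to 50 bp) was divided by the mean signal of the 2 kb in untreated cells. At the median, B cell genes had less signal over the start than genes of other cell types, but the lists overlapped. The median log2 ratio was -2.06 over 5 B cell promoters and -0.23 over 7 promoters of other cell types. Among the B cell genes, CD40 had -3.84, BLNK -2.67, CD79A -2.06, CD79B -1.55 and MS4A1 -0.92. Among the others, the T cell genes CD3E, CD3D and CD8A had -1.13, -0.57 and -0.23, GFAP of astrocytes -0.54, ALB of liver 0.023, HBB of red cells 0.64 and CD14 of monocytes 0.85. CD3E thus had less signal there than MS4A1. Both CD79B and MS4A1 lay above the median of -1.86 over all promoters.

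The members differed in whether nucleosomes were recovered over the start. Shown 5′ to 3′ are stretches of hg19 from within 250 bases upstream of the TSS that lie outside annotated exons, with every CG dinucleotide in capitals. JAK1 (chr1:65432253-65432437, minus strand) and STAT5B (chr17:40428432-40428645, minus strand) stand for starts with almost no fragments, STAT3 (chr17:40540559-40540763, minus strand) for an almost empty start of middle base composition, and STAT4 (chr2:192016323-192016572, minus strand) and STAT5A (chr17:40439315-40439564, plus strand) for starts covered by nucleosomes. The STAT5A stretch also lies inside the annotated STAT5B gene on the other strand, whose longer transcripts start beyond it.
JAK1: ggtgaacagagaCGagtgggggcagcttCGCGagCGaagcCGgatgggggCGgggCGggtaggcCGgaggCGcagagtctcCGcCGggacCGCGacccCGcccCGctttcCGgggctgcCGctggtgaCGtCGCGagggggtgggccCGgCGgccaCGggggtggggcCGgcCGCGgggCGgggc
STAT5B: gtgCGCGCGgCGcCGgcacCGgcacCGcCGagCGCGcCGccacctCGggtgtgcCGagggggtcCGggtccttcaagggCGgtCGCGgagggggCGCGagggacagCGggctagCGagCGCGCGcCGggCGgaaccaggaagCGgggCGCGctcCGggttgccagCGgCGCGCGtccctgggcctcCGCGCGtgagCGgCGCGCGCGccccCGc
STAT3: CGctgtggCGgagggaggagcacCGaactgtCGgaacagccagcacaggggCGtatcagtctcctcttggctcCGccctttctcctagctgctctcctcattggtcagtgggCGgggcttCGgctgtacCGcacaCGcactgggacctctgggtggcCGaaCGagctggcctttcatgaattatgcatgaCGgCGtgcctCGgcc
STAT4: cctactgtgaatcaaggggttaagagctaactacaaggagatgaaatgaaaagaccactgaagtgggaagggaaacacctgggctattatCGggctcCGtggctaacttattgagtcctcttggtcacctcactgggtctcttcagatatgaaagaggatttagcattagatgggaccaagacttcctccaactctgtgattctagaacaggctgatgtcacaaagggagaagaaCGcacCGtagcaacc
STAT5A: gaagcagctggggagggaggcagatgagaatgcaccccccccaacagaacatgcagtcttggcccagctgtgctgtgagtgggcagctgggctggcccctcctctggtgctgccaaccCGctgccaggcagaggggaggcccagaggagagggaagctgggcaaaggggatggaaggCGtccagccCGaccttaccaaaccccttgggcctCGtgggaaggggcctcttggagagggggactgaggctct

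The printed stretch of JAK1 holds 27 CG and that of STAT5B 43, against 15 in STAT3 and 4 each in the longer stretches of STAT4 and STAT5A. Over all 250 upstream bases, exons included, the counts were 46 for STAT5B, 39 for JAK1, 19 for TYK2, 17 for STAT2, 16 for STAT3, 9 for JAK3, 4 for STAT4 and STAT5A and 3 for STAT6. A low count did not by itself go with a covered start, since STAT6 had little signal over its start. The same 250 bases were searched on both strands for motifs. No member held TTCNNNGAA, the palindrome bound by STAT dimers, which 6.14% of the 16260 promoters held, or the core of the interferon-stimulated response element, which 2.56% held. None held TATAAA either, found at 8.74%. The GC box GGGCGG was present at 5 of 9 members (JAK1, JAK3, STAT2, STAT3 and STAT5B) and at 53.4% of all promoters. These are matches of letters in 1 window and say nothing of binding.

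**Figure D1:**
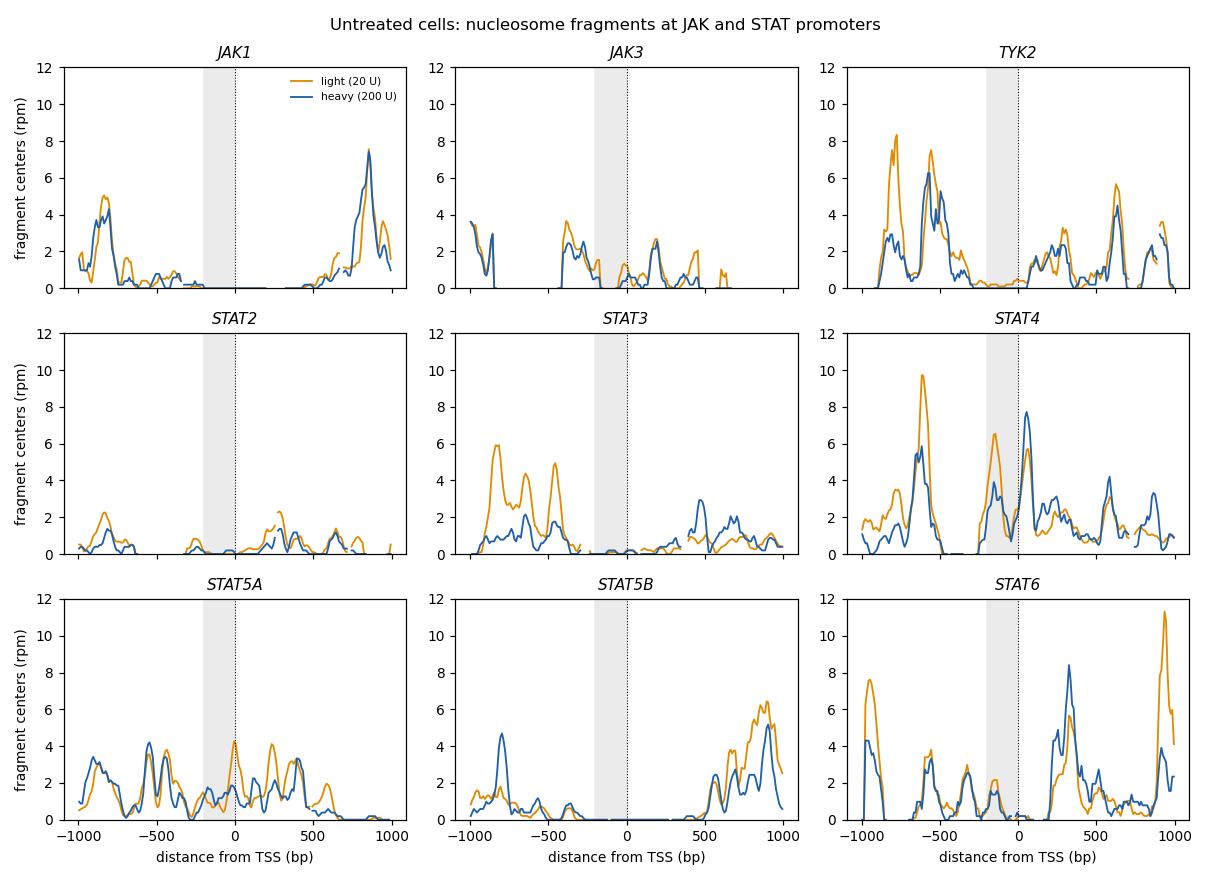
Fragment centers in rpm (vertical axis) by distance from the TSS in bp (horizontal axis) at the 9 promoters in untreated cells, light digest in orange and heavy digest in blue, 1 pooled table each. Gray marks -200 to 0 bp and gaps are bins without a value. JAK1 and STAT5B have no signal around the TSS, while STAT4 and STAT5A carry peaks on both sides of it.

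Among the kinases, the JAK1 promoter (TSS at chr1 65432187, minus strand) was empty over its start. From -200 to 0 bp it held 0 fragments, rounded to whole fragments, in each of the 8 tables, light and heavy, and a count of 0 allows up to 3 fragments per table. Signal stayed below 0.1 of the promoter's mean over 420 bp, from -220 to 200 bp, against a median longest stretch of 130 bp over all promoters. Nucleosomes stood far from the start, at -820, 660 and 850 bp, with 8.77, 2.88 and 13.9 rpm of light plus heavy signal in untreated cells. At TYK2 (TSS at chr19 10491248, minus strand) a stretch of 210 bp from -200 to 10 bp was low, and peaks of 9.90 rpm at -790 bp and 12.2 rpm at -570 bp lay upstream. The JAK3 promoter (TSS at chr19 17958841, minus strand) was measured in part only, since 88 of its 200 bins had no value in any table.

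Among the STAT genes, STAT5B (TSS at chr17 40428424, minus strand), 1 of the paired factors that carry IL-2 and growth hormone signals, resembled JAK1. From -200 to 0 bp, where 2 bins had no value, it held no fragment (0 light, 0 heavy) either untreated or at 40 min, and 1 light and 0 heavy fragments at 60 min. Its low stretch ran over 370 bp from -100 to 270 bp. STAT3 (TSS at chr17 40540513, minus strand), which acts for IL-6, IL-10 and IL-21, had a low stretch of 260 bp from -190 to 70 bp, flanked upstream by nucleosomes at -460, -650 and -830 bp. STAT2 (TSS at chr12 56754037, minus strand), the partner in the interferon-stimulated complex, gave the least signal of all members, with 0.90 rpm of light plus heavy signal over the 2 kb against 1.82 to 3.91 rpm at the others, and 45 of its bins had no value. The annotated gene APOF overlaps the STAT2 window up to -315 bp. STAT6 (TSS at chr12 57505196, minus strand), the factor of IL-4, had nucleosomes at -150 and 330 bp.

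STAT4 and STAT5A went the other way. At STAT4 (TSS at chr2 192016322, minus strand), which acts for IL-12 in T and NK cells, nucleosomes stood at -150 and 50 bp with 9.80 and 13 rpm. At STAT5A (TSS at chr17 40439565, plus strand), the close paralog of STAT5B, peaks stood at -190, -10, 120 and 240 bp. The log2 ratio of signal over the start to that of the 2 kb was 0.34 at STAT4 and 0.44 at STAT5A in untreated cells, in the range of the genes of other cell types above. It was -4.16 at JAK1, -4.14 at STAT5B, -2.93 at TYK2, -2.86 at STAT6, -2.49 at STAT3, -2.26 at STAT2 and -0.90 at JAK3, against a median of -1.86 over all promoters. The same 2 members were lowest and the same 2 highest at 40 and 60 min, with -3.97 and -4.20 at JAK1, -4.23 and -4.16 at STAT5B, 0.49 and 0.64 at STAT4 and 0.46 and 0.83 at STAT5A. JAK1 and STAT5B had 0 rpm over the start each time, so their values are set by the pseudocount and the 2 kb mean. At 40 min STAT3 also had 0 rpm there with a ratio of -3.75, and TYK2 had -3.89, both close to JAK1. STAT5A and STAT5B, which lie next to each other on chromosome 17, were thus at opposite ends.

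Over all promoters, median signal from -200 to 0 bp was lowest at the highest GC content, a relation that the members followed only in part. GC content from -200 to 0 bp was 83% at JAK1 and 82.5% at STAT5B, and in the decile of promoters with the most GC (78% to 96.5%) the median signal of that window was 0.0076 rpm and 86.2% of promoters were below 0.1 rpm. The mean over the 6 tables of untreated, 40 min and 60 min was 0.0028 rpm at JAK1 and 0.0046 rpm at STAT5B, so both were as empty as most promoters of such composition. STAT3, TYK2 and STAT2 were low at moderate GC: with 62%, 59% and 58% GC they had 0.036, 0.104 and 0.116 rpm, where deciles from 55% to 62.5% GC had medians of 1.03 and 0.83 rpm and 5.95% and 6.82% of promoters below 0.1 rpm. STAT4 had 2.72 rpm at 48.5% GC and STAT5A 1.24 rpm at 66.5%. Signal was also lower beside bins without a value (0.52 rpm at 10 to 20 bp from one and 1.34 rpm at 110 to 200 bp, over all promoters), and the low stretches of JAK1, STAT3 and STAT5B bordered such bins while that of TYK2 did not. The part of GC content and of bins without a value in these empty stretches was not tested.

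**Figure D2:**
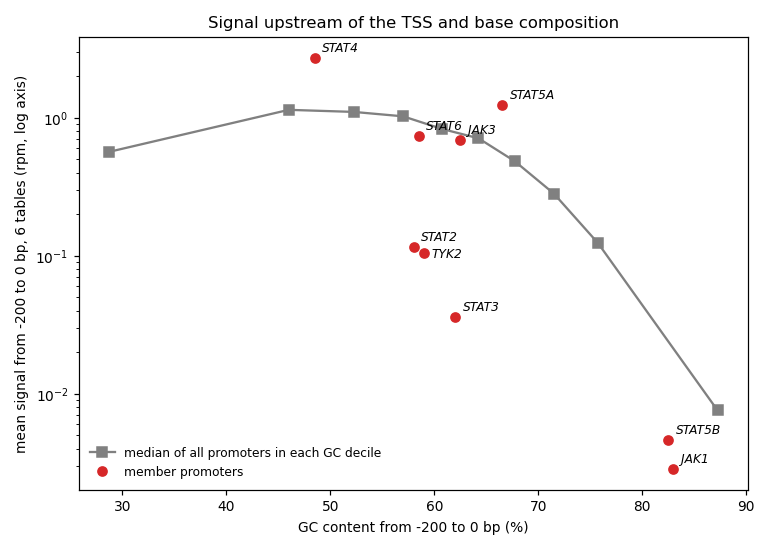
Mean signal from -200 to 0 bp in rpm over 6 tables (vertical log axis) against GC content of the same window in percent (horizontal axis). Red points are the 9 members, and gray squares are medians over all promoters of each GC decile, placed at the middle of the decile's range. JAK1 (0.0028 rpm) and STAT5B (0.0046 rpm) lie near the end of the gray line, and STAT3 (0.036 rpm), TYK2 (0.104 rpm) and STAT2 (0.116 rpm) lie below it.

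Over the 2 kb, the members leaned toward MNase-sensitive fragments. The log2 ratio was above 0 at 9 of 9 members in untreated cells, 7 of 9 at 40 min and 8 of 9 at 60 min, against 54.9%, 54.5% and 54.1% of all promoters. In untreated cells STAT2 was highest with 0.73 (interval 0.43 to 1.47), followed by STAT3 with 0.57 (0.33 to 0.96), TYK2 with 0.39 (0.19 to 0.66), STAT5B with 0.39 (0.14 to 0.72), JAK3 with 0.37 (0.044 to 0.79), STAT4 with 0.22 (0.026 to 0.44), STAT6 with 0.21 (0.00040 to 0.45), STAT5A with 0.18 (-0.049 to 0.44) and JAK1 with 0.079 (-0.19 to 0.38). Each neighboring pair in this order had overlapping intervals. Without the outer 100 bp at each end the ratio of STAT6 was -0.18 in untreated cells. The median over all promoters was 0.064.

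This ratio moved with base composition over all promoters, from a median of 0.60 in the decile with the least GC over the 2 kb to -0.45 in the decile with the most, in untreated cells. STAT5B was in the decile richest in GC and had 0.39 where the decile's median was -0.45, which placed it above 97.48% of that decile. STAT3 (decile median 0.053) stood above 95.1% of its decile and STAT2 (decile median 0.24) above 93.6%. The remaining members stood between 47.2% for STAT4 and 77.4% for TYK2. At 40 and 60 min STAT5B stood above 93.3% and 92.3% of its decile and STAT3 above 96.9% and 99.6%. STAT2 stood above 70.1% of its decile at 40 min and 98.6% at 60 min, and JAK1 above 94.5% and 63.6%.

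**Figure D3:**
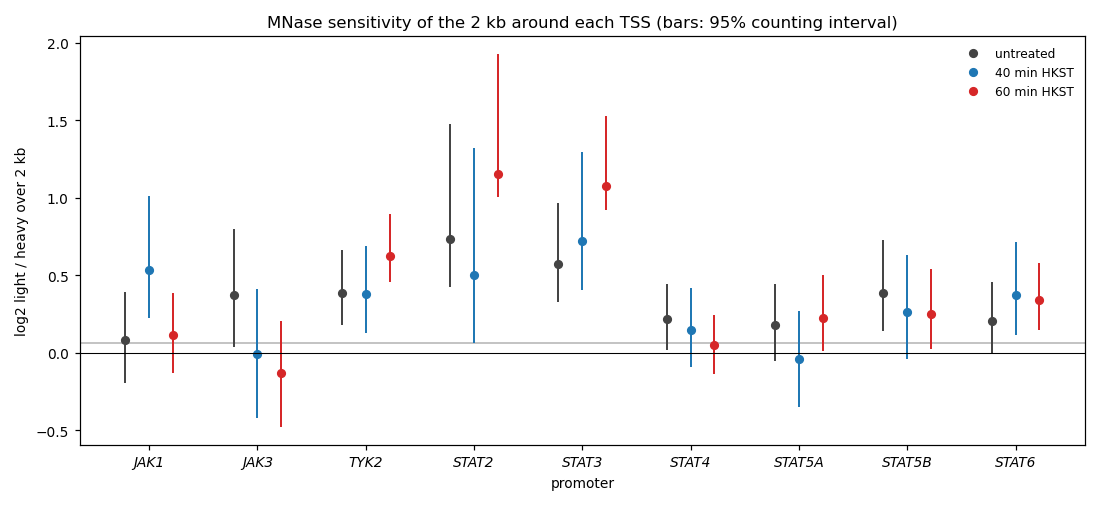
Log2 of light over heavy signal over the 2 kb (vertical axis) at the 9 promoters in untreated cells and at 40 and 60 min of HKST. Points include the pseudocount, bars are 95% counting intervals of the fragments, and the gray line is the median over all promoters. STAT2 and STAT3 reach 1.15 and 1.07 at 60 min, and JAK3 lies above 0 in untreated cells and below it at 40 and 60 min.

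At STAT3 the ratio was higher upstream of the start than downstream of it. From -1000 to 0 bp STAT3 had 1.73 rpm light and 0.615 rpm heavy in untreated cells, 1.51 and 0.493 rpm at 40 min and 2.02 and 0.625 rpm at 60 min. From 0 to 1000 bp it had 0.496 and 0.801 rpm, 0.374 and 0.558 rpm, and 0.643 and 0.515 rpm. Its upstream log2 ratio was thus 1.33, 1.41 and 1.52 and its downstream ratio -0.58, -0.46 and 0.26. The difference of 1.91 in untreated cells (interval 1.49 to 2.86) exceeded that of 99.7% of promoters, whose median was 0.24, and the differences at 40 and 60 min were 1.87 (1.28 to 3.18) and 1.26 (0.74 to 2.00). The nucleosomes at -830, -650 and -460 bp had 5.90, 4.25 and 4.77 rpm in the light digest and 0.91, 2.05 and 1.69 rpm in the heavy digest, whereas those at 470 and 670 bp had 0.703 and 0.789 rpm light and 2.90 and 1.86 rpm heavy. The peak at 920 bp, also downstream, had 1.08 rpm light and 0.847 rpm heavy. GC content was 52.5% upstream and 63.5% downstream of STAT3, and its part in the difference was not tested.

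STAT4 leaned the same way, with upstream minus downstream differences of 0.98 (0.61 to 1.46), 0.60 (0.14 to 1.17) and 0.44 (0.096 to 0.85) and GC contents of 44.1% and 57.1%. STAT5B and STAT5A leaned the opposite way. STAT5B had differences of -0.98 (-1.77 to -0.48), -0.34 (-1.11 to 0.34) and -1.13 (-1.87 to -0.74), with nearly equal GC of 67.3% upstream and 66.4% downstream. Differences of -1 or less occurred at 2.12%, 2.1% and 2.61% of all promoters. STAT5A had -0.59 (-1.18 to -0.14), -0.92 (-1.69 to -0.37) and -0.32 (-0.87 to 0.13). At STAT6 the difference was 0.41 (-0.018 to 0.92), 0.44 (-0.13 to 1.11) and 0.95 (0.59 to 1.46), and at TYK2 0.25 (-0.23 to 0.74), 0.56 (0.010 to 1.14) and 0.036 (-0.40 to 0.47). The sides were compared after the profiles had been seen.

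**Figure D4:**
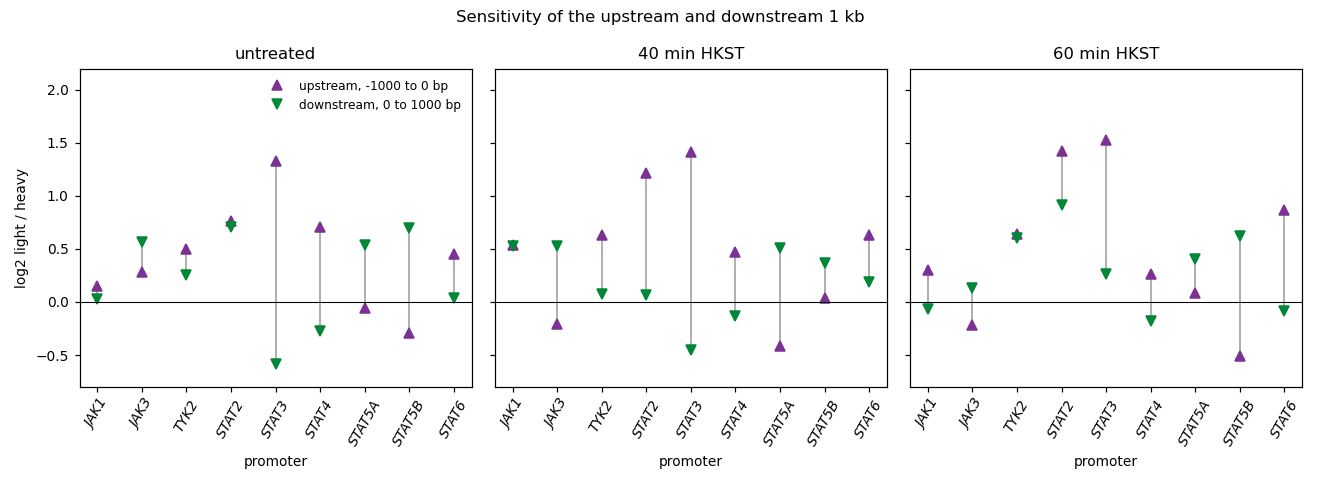
Log2 of light over heavy signal (vertical axis) in the 1 kb upstream (purple) and downstream (green) of the TSS at the 9 promoters, in untreated cells and at 40 and 60 min of HKST, 1 pair of pooled tables each. STAT3 is higher upstream at all 3, with differences of 1.91, 1.87 and 1.26, and STAT5B is higher downstream.

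At the -1 nucleosome (-200 to 0 bp), 4 of 9 members (JAK3, STAT4, STAT5A and STAT6) had the 20 fragments over the 4 tables compared that were asked of a promoter to be counted. STAT6 gave the largest difference at 60 min. It had 0.93, 0.73 and 1.33 rpm in the light digest of untreated cells, 40 min and 60 min and 0.69, 0.39 and 0.33 rpm in the heavy digest, which is 27, 21 and 40 light and 11, 4 and 7 heavy fragments. The ratio thus stood at 0.36 untreated, then 0.74 and 1.69 on the log2 scale, and the change of 1.32 at 60 min had an interval that reached below 0 (-0.085 to 3.40). At JAK3 the ratio was 1.29, -0.16 and 0.47, on 16, 15 and 16 light and 3, 6 and 8 heavy fragments, and the change of -1.46 at 40 min had an interval of -4.54 to 0.85. In this window JAK3 had 8 of 20 bins without a value and STAT6 had 2.

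Counted against all promoters, 0 of these 4 members were higher by 1 log2 unit or more and 1 was lower at 40 min, where 11.1% of 10781 promoters were higher and 5.97% lower. At 60 min 1 was higher and 0 were lower, where 9.12% of 11124 promoters were higher and 4.86% lower. With a pseudocount of 0.5 of the mean value neither call was made, since JAK3 had -0.83 at 40 min and STAT6 0.82 at 60 min. A count of 1 among 4 promoters does not set the members apart from these shares. STAT4, with 3.34, 2.91 and 2.91 rpm light and 2.34, 1.86 and 2.98 rpm heavy, had ratios of 0.49, 0.62 and -0.034, and STAT5A had -0.042, -0.25 and -0.42. No interval of a change at the 4 members excluded 0. The other 5 members held too few fragments, and the nominal change of 2.2 at STAT2 at 60 min rested on 12 fragments in all. Over the 9 members the median change was 0.036 at 40 min and 0.052 at 60 min, against 0.051 and 0.026 over all promoters.

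In the window of the +1 nucleosome (50 to 250 bp), the ratio of STAT6 and STAT4 was below 0 at each time point, though the untreated interval of STAT6 included 0. The first STAT6 peak after the start stood at 330 bp untreated and 320 bp at 60 min, beyond this window. At 40 min a STAT6 peak stood inside it at 230 bp. The log2 ratio of STAT6 was -0.98 in untreated cells (13 light and 15 heavy fragments, interval -2.32 to 0.040), -1.97 at 40 min (10 and 16, -3.51 to -0.98) and -1.24 at 60 min (12 and 22, -2.54 to -0.32). That of STAT4 was -0.54 (72 and 56, -1.09 to -0.033), -0.60 (69 and 37, -1.22 to -0.010) and -0.88 (58 and 76, -1.43 to -0.40). In untreated cells the STAT4 peak before the start, at -150 bp, had more light than heavy signal (6.31 and 3.48 rpm). The peak at 50 bp had less light than heavy signal (5.49 and 7.49 rpm). From -200 to 0 bp, the untreated ratio of STAT4 was 0.49 with an interval that included 0 (-0.028 to 1.07). The peak before the start had 5.68 rpm light and 3.31 rpm heavy at 40 min and 5.04 rpm in each digest at 60 min. STAT2 had 1.25 in untreated cells on 20 light and 3 heavy fragments and -0.31 and 0.24 at 40 and 60 min. The intervals of its changes included 0, with -1.56 (-4.91 to 0.29) at 40 min and -1.01 (-4.34 to 0.94) at 60 min. JAK1 and STAT5B held 0 fragments in this window in each table in which they were complete. At STAT6 6 and at JAK1 5 of the 20 bins had no value.

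After HKST, changes over the 2 kb were below 1 log2 unit at every member. At 60 min STAT3 was higher and JAK3 lower with intervals that excluded 0, and at 40 min JAK1 was higher. STAT3 had 1.11, 0.94 and 1.33 rpm in the light digest and 0.71, 0.53 and 0.57 rpm in the heavy digest of untreated cells, 40 min and 60 min. Its ratio was 0.57, 0.72 and 1.07, so that the change was 0.15 (-0.34 to 0.74) after 40 min and 0.50 (0.14 to 1.01) after 60 min. Light fragments alone were 1.2-fold their untreated level at 60 min (log2 0.26, interval 0.051 to 0.47), and heavy fragments were 0.80-fold (log2 -0.32, -0.69 to 0.063). At 40 min light fragments were lower (log2 -0.24, -0.47 to -0.0044). At 60 min its ratio was above that of 98.4% of all promoters. The change at 60 min lay mainly downstream of the start, with 0.85 from 0 to 1000 bp (0.29 to 1.71) and 0.19 from -1000 to 0 bp (-0.42 to 0.80). Of the other members, only STAT4 had a change on 1 side of the start whose interval excluded 0. It was -0.44 from -1000 to 0 bp at 60 min (-0.88 to -0.062). The share of all promoters with such a change on 1 side was not computed.

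STAT2 had the same direction as STAT3 at 60 min. It had 0.594, 0.525 and 0.781 rpm in the light digest and 0.310, 0.337 and 0.287 rpm in the heavy digest, with ratios of 0.73, 0.50 and 1.15 and a change at 60 min of 0.42 (-0.19 to 1.22). At equal depth light fragments were 1.32-fold their untreated level (log2 0.40, 0.089 to 0.72) and heavy fragments 0.922-fold (log2 -0.12, -0.74 to 0.51). Without bins that lie within 50 bp of a bin without a value, an alternative added after the data were seen, the change at STAT2 was 0.77 (0.13 to 1.82) and that at STAT3 0.52 (0.14 to 1.05).

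JAK3 had 1.19, 1.12 and 0.93 rpm light and 0.89, 1.12 and 1.02 rpm heavy. Its ratio was 0.37, -0.0081 and -0.13, so that the change was -0.38 (-0.99 to 0.14) after 40 min and -0.50 (-1.06 to -0.048) after 60 min, with light fragments at 0.78-fold at 60 min (log2 -0.36, -0.65 to -0.063). JAK1, the member complete at each time point, had 1.03, 1.00, 1.04 and 1.07 rpm in the light digest and 0.97, 0.88, 0.68 and 0.98 rpm in the heavy digest of untreated cells, 20, 40 and 60 min. The 40 min heavy table stood apart: heavy fragments were at 0.71-fold (log2 -0.49, -0.93 to -0.075) and light fragments at 1.01-fold. The ratio was 0.079, 0.17, 0.53 and 0.11, and the 3 changes from untreated were 0.086 (-0.34 to 0.53), 0.45 (0.029 to 1.01) and 0.033 (-0.36 to 0.42).

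With 9 members, the counts of such changes do not set them apart from all promoters. At 40 min 1 of 9 members was higher and 0 lower with an interval that excluded 0, where this held for 5.91% and 5.28% of 16145 promoters. At 60 min 1 of 9 was higher and 1 lower, against 8.06% and 9.38% of 16146. At 20 min JAK1 was not called in either direction, where 10.6% of 2779 promoters were higher and 9.50% lower, and its -1 window was empty, where 12.1% of 1950 promoters were higher and 6.10% lower by 1 log2 unit or more. The changes of the other members over the 2 kb had intervals that included 0. At 60 min they were 0.24 at TYK2, 0.13 at STAT6, 0.048 at STAT5A, -0.13 at STAT5B and -0.17 at STAT4. At STAT5A both digests had lower values, with light fragments at log2 -0.33 (-0.53 to -0.12) at 40 min and -0.23 (-0.43 to -0.029) at 60 min and heavy fragments at -0.087 (-0.42 to 0.24) and -0.29 (-0.57 to -0.011). In the 20 min heavy table STAT2 had 0.45 rpm and STAT6 1.53 rpm, against 0.31 and 1.58 rpm untreated.

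**Figure D5:**
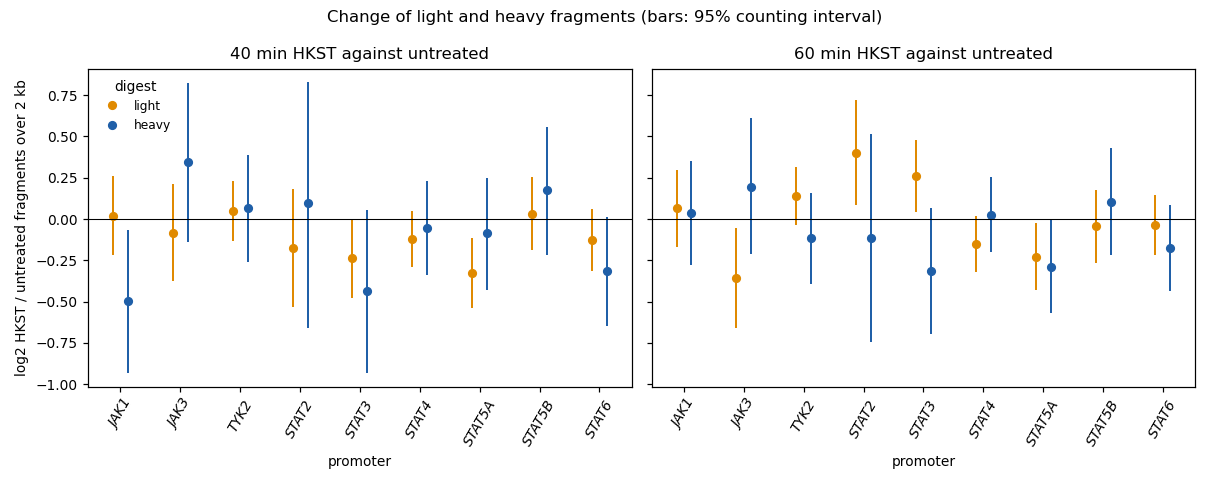
Log2 of HKST over untreated fragments over the 2 kb at equal depth (vertical axis) for the light (orange) and heavy (blue) digest at the 9 promoters, 40 min left and 60 min right. Bars are 95% counting intervals. At 60 min the light digest is up at STAT2 (0.40) and STAT3 (0.26) and down at JAK3 (-0.36), and at 40 min the heavy digest is down at JAK1 (-0.49). STAT5A is down in the light digest at 40 min (-0.33) and in both digests at 60 min (-0.23 light and -0.29 heavy). Over all promoters the middle 95% of light values ran from -0.34 to 0.36 at 40 min and -0.41 to 0.39 at 60 min. That of heavy values ran from -0.46 to 0.45 and -0.44 to 0.48.

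Nucleosome positions were compared between untreated and HKST-treated cells by the shape of the profile and by peaks. Across the 2 kb, Pearson's r between the untreated and HKST profiles of light plus heavy signal lay between 0.85 and 0.99 for the 9 members, over the 200 positions less those without a value (2 at STAT5A to 88 at JAK3), which share fragments with their neighbors. Of 48 peaks in untreated cells, 35 had a peak within 50 bp at 40 min and 39 at 60 min, and 25 and 31 within 10 bp. No share over all promoters stands beside these counts, and some peaks can match without being the same nucleosome. The counts therefore do not show whether the members kept their positions more than other promoters. JAK1 kept its 3 peaks to within 50 bp, and STAT5A had all of its 8 and STAT6 all of its 7 at 60 min. JAK3 and STAT5B had 2 of 4 at both time points, and STAT3 had 3 of 6 at 40 min and 4 of 6 at 60 min. At STAT4 the pair around the start moved by at most 20 bp, from -150 and 50 bp to -170 and 40 bp at 40 min and -160 and 50 bp at 60 min.

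The rest of the pathway was read from 3 lists at the -1 nucleosome: receptors, inhibitors and partners or targets. Among 18 receptor promoters with enough fragments, 1 was higher by 1 log2 unit or more and 0 lower at 40 min, and 0 higher and 1 lower at 60 min. The shares over all promoters were 11.1% higher and 5.97% lower at 40 min and 9.12% and 4.86% at 60 min, and they apply to the 3 lists alike. The receptors past 1 log2 unit were IL10RA, a chain of the IL-10 receptor, with 1.55 at 40 min, and EPOR, the erythropoietin receptor, with -1.23 at 60 min. IFNGR1 and IFNGR2, the chains of the interferon gamma receptor, differed at 60 min with 0.88 (-0.081 to 1.87) and -0.77 (-1.78 to 0.14), and at 40 min IFNGR2 had -0.75. IFNLR1 had 0.57 and IL21R -0.98 at 40 min, and IL10RA 0.73 at 60 min. The median change over all 22 receptor promoters was 0.10 at 40 min and -0.042 at 60 min, against 0.051 and 0.026 over all promoters. Over the 18 with enough fragments it was -0.070 at 40 min.

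Of 7 inhibitor promoters with enough fragments 0 passed 1 log2 unit at either time point, a number too small to set against those shares. The tyrosine phosphatase PTPN2 had 0.66 at 40 min, PTPN6 -0.80 at 40 min and 0.49 at 60 min, PTPN11 0.056 and -0.15, and PTPRC 0.20 at 60 min, while PIAS3, a protein inhibitor of STAT, had -0.70 and -0.97. Over all 18 inhibitor promoters the medians were 0.017 and 0.048.

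Of 10 target promoters, 2 were higher and 1 lower at 40 min and 3 higher and 0 lower at 60 min. Against 11.1% and 5.97% of all promoters at 40 min and 9.12% and 4.86% at 60 min, these counts rest on 10 promoters whose intervals all included 0. OAS1, an antiviral enzyme induced by interferon, was in both counts with 1.3 at 40 min (17 light and 1 heavy fragments, from 17 and 6) and 1.2 at 60 min. PRDM1, the plasma cell regulator, had 1.04 at 40 min, and BCL6, the germinal center repressor, had -1.07 at 40 min and -0.34 at 60 min. At 60 min BCL2L1, a survival gene, had 1.3 (-0.34 to 4.23) and the interferon-induced ubiquitin-like modifier ISG15, named here after its value was seen, had 1.17 (-0.16 to 2.59). IFIT1 had -0.25 at 40 min and CCND2 -0.022 at 60 min. The medians over 13 target promoters were 0.29 and 0.31. Among the promoters of the 3 lists with enough fragments, no interval excluded 0.

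The promoters whose profiles were most like those of the members, by Pearson's r of light plus heavy signal summed over the 6 tables and smoothed over 50 bp, are given as a description. The empty starts had the closest matches: CSRNP1 (r = 0.93) and ATP1A1OS (0.92) for JAK1, and ARRB1 (0.92) and ZNF41 (0.92) for STAT5B. STAT3 was most like PITPNM3 (0.88) and KIAA2018 (0.87), JAK3 like KANK4 (0.85) and SETD6 (0.85), TYK2 like OSBPL2 (0.82) and TAP2 (0.81) and STAT2 like COL1A1 (0.82) and LAMA2 (0.78). STAT4 was most like NEFL (0.82) and PIK3CG (0.77), STAT6 like ZWINT (0.79) and KDM6A (0.76) and STAT5A like ZNF681 (0.71) and CST9L (0.66). Each value rests on at least 95 positions.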

How the data were processed

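mTSS-seq (MNase-seq with capture of promoters) was performed in 16 samples. The authors removed adapters and aligned read pairs to hg19, of which unique alignments were kept. Bowtie2 2.2.2, bedtools and SAMtools are named in the submitters' processing notes. The values the authors deposited are depth-normalised fragment-center counts (rpm), each over 60 bp and spaced by 10 bp, in 8 tables that pool 2 replicates each. They rise in even steps (100% were whole steps within 0.05). A step was taken as 0.5 fragment, which the even steps alone do not show, and fragment numbers were recovered on that basis (a fragment enters 6 windows). Depths, fragment counts and intervals rest on it. In the untreated heavy and both 20 min tables the last line was incomplete and was left out, after 16260, 2801 (light) and 6779 (heavy) promoters.

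Sensitivity was log2 of light over heavy mean rpm after a pseudocount of 0.118 rpm (0.1 of the mean value) was added to both. Changes are sensitivity at HKST minus untreated. Exact conditional 95% intervals (Clopper-Pearson, or of the odds ratio) came from fragments without the pseudocount, and the methods were tested on simulated fragments. Promoters needed 20 fragments to be counted. Peaks were maxima of profiles smoothed over 3 bins, at least the promoter's mean. Bins without a value were left out.

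Members and gene lists were chosen with earlier results of these data known. Named were all members and markers, the 2 highest and 2 lowest changes in -1 sensitivity per pathway list and time point, and the 2 most similar promoters per member. Lists had 22 of 29 receptors, 18 of 19 inhibitors, 13 of 14 targets and 5 of 7 B cell markers with a promoter. Sequence came from GRCh37 (hg19) and exons from GENCODE. Alternatives covered pseudocount, window, centring, filters and bins used. Python 3.11.15, numpy 2.4.6, scipy 1.17.1 and matplotlib 3.10.9 were used.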

Additional observations from a re-analysis of the deposited data

How the results depend on the processing

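No paired analysis was possible because each table pools both replicates, and for the same reason no replicate could be left out. Of 77 recomputed counts and medians 69 stayed within 1.5 times the reported count or inside the spread of the members, and of 387 recomputed values of members and lists 383 did not move beyond the interval or spread of the reported value. With 0.5 fragment added to recovered fragments in place of rpm with a pseudocount, 3 members in place of 5 were higher at the -1 nucleosome at 40 min. With a pseudocount of 0.5 of the mean value, the share of all promoters past 1 log2 unit was 1.47% higher and 1.05% lower at 40 min and 0.80% and 0.49% at 60 min. With the +1 window from 0 to 200 bp, 4 members in place of 2 were above 0 at 60 min, and 0 in place of 1 were higher than untreated. Without bins within 50 bp of a bin without a value, chosen after seeing the data, 2 members (STAT2 and STAT3) in place of 1 were higher over the 2 kb at 60 min with an interval that excluded 0. Without the outer 100 bp at each end, also chosen after seeing the data, the 2 kb ratio of STAT6 was -0.18 untreated, 0.088 at 40 min and -0.070 at 60 min. Under the pseudocount of 0.5, JAK3 at 40 min (-0.83) and STAT6 at 60 min (0.82) no longer passed 1 log2 unit at the -1 nucleosome. The other 5 members held fewer than 20 fragments there.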
